A study of Homo sapiens with 6 samples.

Results

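The 8q24 locus was taken here as 8 Mb of chromosome 8, from 124000001 to 132000000 (hg38), with 8 named genes: MTSS1, NSMCE2, TRIB1, POU5F1B, MYC, GSDMC, ASAP1 and ADCY8. All 8 were found by symbol among the 19970 protein-coding genes of the RefSeq table, of which 714 lie on chromosome 8. The locus was chosen because earlier results of the same lists showed long LaminB1 stretches over MTSS1 in the double loss group only, so the contrast between the groups is described and not tested.

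Contacts of chromatin with LaminB1, a lamin of the nuclear envelope, were mapped by CUT&RUN, in which an antibody-guided nuclease releases the chromatin around its target. The cells were HCT116, a colorectal carcinoma line. In the double loss group, TOP2A with a mini auxin-inducible degron was degraded by 500 µM auxin for 8 h in cells that also lacked TOP2B (TOP2B -/-, made by CRISPR/Cas9). The control group carries the genotype label wildtype. By the treatment text and the names of its lists it was the line with the TOP2A degron, without auxin. Both groups were arrested in G1 with 2 µM palbociclib for 28 h, and each had 2 LaminB1 libraries and 1 IgG library. The series text states that up to 95% of TOP2A was removed; the lists themselves give no measure of either protein. Clone numbers are not given, and nothing in the labels says that replicates were separate cultures. Knockout, degron exposure, auxin, cell line and the library of control reads cannot be told apart between these groups. Each group had its own control reads, shared by its 2 lists, so the SDs given below do not cover differences between control libraries.

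Lamina-associated domains are long stretches of mostly gene-poor and weakly transcribed chromatin that lie at the nuclear edge. Type II topoisomerases pass one DNA duplex through another and so relieve supercoils and tangles. MYC, a transcription factor gene that drives growth, lies in a large gene desert of 8q24 that holds long non-coding RNA genes and distal enhancers used in colorectal cancer cells. Of the other protein-coding genes of the locus, POU5F1B and LRATD2 also lie within the desert. The rest are spread on both sides of it, with the actin-binding gene MTSS1 on one side and the adenylyl cyclase gene ADCY8 on the other.

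The 4 lists of called regions contained 8151172 and 8351031 LaminB1 reads in the double loss group and 7374626 and 7263458 in the control group. Regions that overlapped the locus held 90990 and 90220 of these reads in the double loss lists, against 44961 and 47268 in the control lists. These counts include sequence past the end of the locus, which regions of 2623 and 1361 kb crossed in double loss 1 and 2, against 920 kb in each control list. Total library depth is unknown, because reads outside regions are not listed. A place with no region therefore has no value, and it cannot be told from the lists how near it came to being called. Counting intervals given below cover counting error only.

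LaminB1 regions covered 45.6% and 46.9% of the locus in double loss 1 and 2, against 21.4% and 21.1% in control 1 and 2. The group means were 46.3% ± 0.946 in the double loss group and 21.2% ± 0.168 in the control group (SD, n = 2 each), a difference of 25.03 percentage points. The difference is larger than the spread within either group, but the locus was picked by this contrast, so nothing is read from that. On the rest of chromosome 8 the covered share was 45.7% ± 0.0521 in the double loss group and 43.8% ± 1.23 in the control group (SD, n = 2 each). In the control lists the locus was thus less covered than its own chromosome, and in the double loss lists about as much.

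Gained sequence, called in both double loss lists and in neither control list, came to 1699 kb in 16 stretches, or 21.2% of the locus. On the rest of chromosome 8 it was 2.09%, and over the genome 1.86%. The locus is 0.264% of the genome by length and held 3.02% of its gained sequence. Lost sequence, called in both control lists and in neither double loss list, came to 0 kb in the locus, against 1.32% of the rest of chromosome 8. The locus was picked by this contrast, so nothing is read from how these shares differ from the rest. Sequence called in all 4 lists came to 1496 kb, and 4126 kb was in no list.

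**Figure D1:**
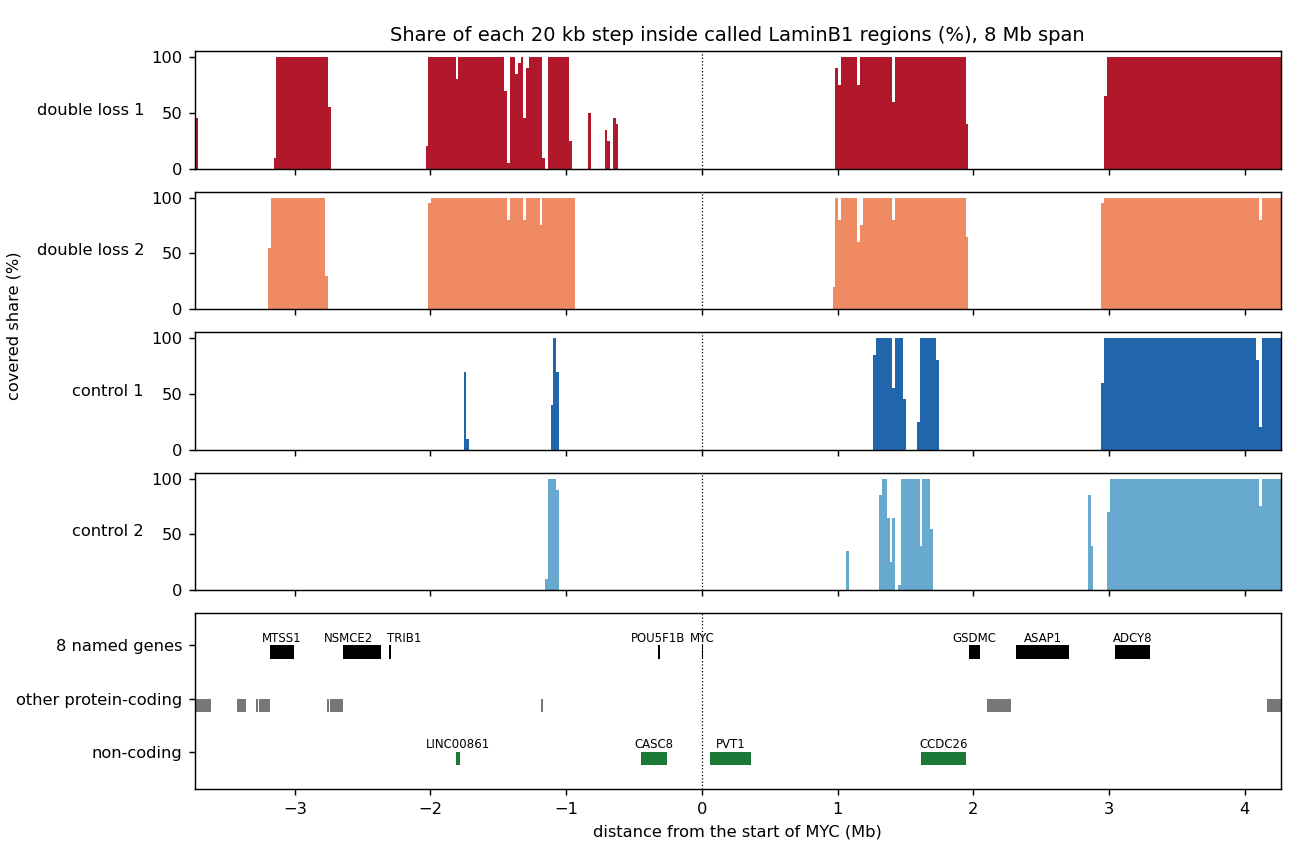
Share of each 20 kb step inside called LaminB1 regions (%, 0 to 100), by distance from the start of MYC in Mb, for double loss 1, double loss 2, control 1 and control 2 from top to bottom. The lowest panel draws the genes to scale, and the dotted line marks MYC. The double loss lists have long covered blocks on both sides of MYC where the control lists have short ones or none, while the block over ADCY8 at the right is present in all 4 lists and the stretch around MYC is empty in all 4.

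In steps of 20 kb, 202 of the 400 steps had covered sequence in some list. Both double loss lists lay above both control lists in 97 of the 202, and below both in 0. Over the genome, 14.1% of 50356 covered steps were above in this way and 9.8% below. Since the locus was picked by this contrast, nothing is read from that excess. The control lists each had covered sequence in 91 of the 400 steps, against 194 and 192 steps in double loss 1 and 2. In 85 of the 97 steps the nearest lists of the 2 groups were at least 50 points apart, a gap found upward in 4.77% and downward in 3.13% of the covered steps of the genome. In 72 steps the share was 100% in both double loss lists and 0% in both control lists, and in 68 steps it was 100% in all 4 lists.

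The blocks of the double loss lists agreed closely with each other. Their base-pair Jaccard index (shared over joint length) within the locus was 0.923, against 0.787 between the control lists. Up to the end of ASAP1, which leaves out the ADCY8 domain, it was 0.894 between the double loss lists and 0.425 between the control lists. Over the genome the same index was 0.626 between the double loss lists and 0.642 between the control lists. The 2 lists of a group share 1 set of control reads, which can make them more alike. The locus was also picked for long stretches in the double loss group only, which favours a high index between its lists. Nothing is therefore read from the gap to the genome values. Of the sequence called in control 1 within the locus, 98.9% was also called in both double loss lists, and for control 2 it was 98.3%. The reverse shares, for control 1 and 2, were 47.6% and 46.7% of the sequence called in both double loss lists, but 18.4% and 17.3% up to the end of ASAP1. The control calls of the locus were therefore almost wholly nested in the double loss calls. In no double loss list was 1 stretch of 25 kb, called in control 2 from 130583001 to 130608000, between ASAP1 and ADCY8. Over the genome, 64.4% of the sequence of control 1 and 66.6% of that of control 2 was called in both double loss lists. The choice of the locus favours nesting, so nothing is read from the gap to these shares either.

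MTSS1, which encodes an actin-binding protein that bends the cell membrane, lies on chromosome 8 from 124550784 to 124728473 (hg38). Its body was covered at 73.4% in double loss 1 and 100% in double loss 2, against 0% in both control lists. The groups do not overlap. The means were 86.7% ± 18.8 in the double loss group and 0% in the control group (SD, n = 2 each). MTSS1 was the 1 member of 8 whose groups do not overlap, and only 2 of the 8 had covered sequence in some list. Of the 3057 protein-coding genes covered in at least 1 list, 21.5% lay higher without overlap and 13.8% lower.

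A single region lay over MTSS1 in each double loss list. It ran from 124598001 to 124991000 in double loss 1 and from 124549001 to 124966000 in double loss 2. In double loss 2 it began just before the gene's lower coordinate, and in double loss 1 it left out the part of the body below 124598001. The nearest region to MTSS1 in the control lists was 1258 kb away in control 1 and 1870 kb away in control 2. The stretch common to both double loss lists, 124598001 to 124966000, is 368 kb long and the longest of 5693 gained stretches in the genome. Such a stretch was the reason for choosing the locus, so nothing is read from its rank.

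Beyond MTSS1 the region crossed the 245 kb without a protein-coding gene up to ZNF572, a zinc-finger gene. That gap was covered at 100% and 97.0% in double loss 1 and 2, against 0% in both control lists. ZNF572 itself was covered at 100% in double loss 1 and at 0% in double loss 2 and in both control lists, because the region of double loss 2 ended 7.3 kb before it. On the other side NDUFB9, a gene of respiratory complex I, was covered at 9.02% in double loss 2 and at 0% in the other 3 lists. The block thus held MTSS1 and little else that codes for protein.

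NSMCE2, whose product is a SUMO ligase of the SMC5/6 complex, and TRIB1, which encodes a pseudokinase that feeds substrates to a ubiquitin ligase, were at 0% in all 4 lists. So were the 2 genes between them and ZNF572, SQLE of sterol synthesis and WASHC5 of the endosomal WASH complex. In the double loss lists NSMCE2 lay 101 and 126 kb from the nearest region and TRIB1 278 and 283 kb. In the control lists the nearest regions to TRIB1 were 548 and 1160 kb away. The gene-bearing stretch from SQLE through TRIB1 was uncovered in both groups, between covered blocks on both sides in the double loss lists.

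The gap from TRIB1 to LRATD2 is the upstream part of the gene desert, 1114 kb without a protein-coding gene. It was covered at 71.0% and 73.9% in double loss 1 and 2, against 1.44% and 0% in control 1 and 2. The means were 72.4% ± 2.07 in the double loss group and 0.718% ± 1.02 in the control group (SD, n = 2 each). This gap held 769 kb of gained sequence, the most of the 7 gaps over 200 kb between protein-coding genes of the locus. The covered part began at 125716001 in double loss 1 and 125721001 in double loss 2, so the 278 to 283 kb nearest TRIB1 stayed uncovered. LINC00861, a long non-coding RNA gene within the gap, was covered at 86.1% and 100% in double loss 1 and 2, against 0% in both control lists.

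The upstream block was called as several regions with short breaks between them. Double loss 1 had breaks of 4 to 38 kb and double loss 2 had breaks of 4 or 5 kb. A break ended at 126319000 in both lists and another began at 126429001 in both. LRATD2, a small gene at the far end of the gap, was covered at 100% in double loss 1 and 24.5% in double loss 2, against 0% in both control lists. In double loss 2 a break from 126552001 to 126557000 fell over most of its body.

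Past LRATD2, the gap of 855 kb up to POU5F1B was covered at 24.3% and 28.2% in double loss 1 and 2, against 4.91% and 9.36% in control 1 and 2. The covered part was its LRATD2 end. Here the control lists had a call of their own, from 126632001 to 126674000 in control 1 and from 126598001 to 126678000 in control 2, inside a longer region of each double loss list. Those regions ended at 126765000 in double loss 1 and 126800000 in double loss 2. Double loss 1 alone had 3 further short regions of 10 to 17 kb, the last of them ending at 127108000. One of these took in 12.5% of PRNCR1, a long non-coding RNA gene.

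MYC, at 127735434 to 127742951, was at 0% in all 4 lists. POU5F1B, a retrogene of the pluripotency factor gene POU5F1, was at 0% as well. The uncalled stretch around MYC ran from 127108001 to 128722000 in double loss 1 (1614 kb) and from 126800001 to 128716000 in double loss 2 (1916 kb). It ran from 126674001 to 129003000 in control 1 (2329 kb) and from 126678001 to 128813000 in control 2 (2135 kb). The uncalled stretch was shorter in both double loss lists than in both control lists. The part in no list, from 127108001 to 128716000, is 1608 kb long, reaches 627 kb before MYC and 973 kb after it, and holds 11 long non-coding RNA genes of the RefSeq table.

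The named non-coding genes near MYC lie in this stretch. CASC19, CCAT1, CASC21, CASC8 and CCAT2 before MYC, CASC11 next to it and PVT1 just after it were at 0% in all 4 lists, and so was PCAT1, which lies farther out. PVT1, a long non-coding RNA gene whose promoter is known to compete with that of MYC for enhancers, is 307 kb long. Its nearest region was 621 and 615 kb away in double loss 1 and 2, against 902 and 712 kb in control 1 and 2. The nearest stretch of gained sequence to MYC ended 970 kb before it, and on the other side the nearest began 979 kb after it.

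The gap of 1962 kb from MYC to GSDMC, the downstream part of the desert, was covered toward its GSDMC end. Its covered share was 48.3% and 48.7% in double loss 1 and 2, against 18.2% and 16.1% in control 1 and 2. The means were 48.5% ± 0.288 in the double loss group and 17.1% ± 1.55 in the control group (SD, n = 2 each). It held 468 kb of gained sequence and 200 kb called in all 4 lists. The double loss block ran, with breaks of 4 to 13 kb, from 128722001 to 129688000 in double loss 1 and from 128716001 to 129693000 in double loss 2. The control lists had 3 and 5 separate regions inside it, the first at 129003001 in control 1 and at 128813001 in control 2.

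Breaks of this block recurred between lists. A break lay at 129152001 to 129160000 in double loss 1 and at 129155001 to 129159000 in double loss 2. In control 1 it was at 129151001 to 129160000, and in control 2 at 129153001 to 129199000. In the double loss lists another shared break ended at 128754000 and one more began at 128892001. The region between these 2 breaks, of 138 kb, had the same edges in both lists and the same 1708 control library reads, with 2008 and 2004 LaminB1 reads in double loss 1 and 2.

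CCDC26, a long non-coding RNA gene of 329 kb at the GSDMC end of the gap, was covered at 100% in both double loss lists, against 37.8% in control 1 and 24.05% in control 2. The groups do not overlap. The longest gained stretch of the downstream desert, 212 kb from 129476001 to 129688000, lay mostly in CCDC26, and by length it ranked 3 among the gained stretches of the genome. The choice of the locus favours such a rank, so nothing is read from it.

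**Figure D2:**
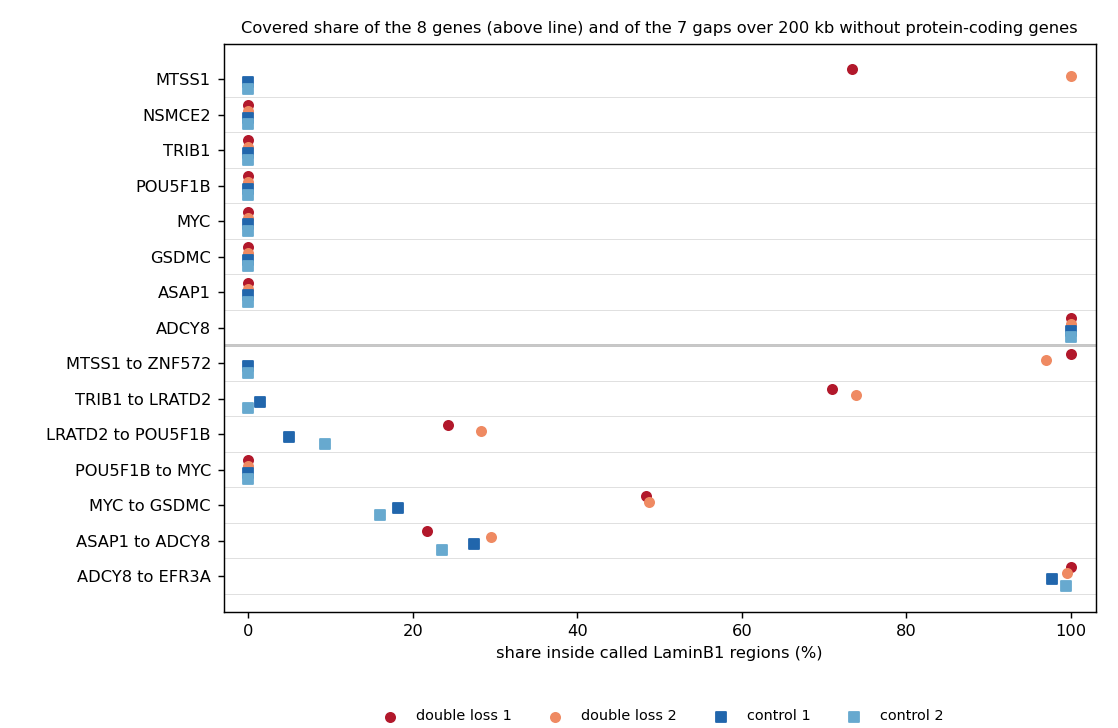
Share inside called LaminB1 regions (%) of the 8 named genes, above the line, and of the 7 gaps of over 200 kb without a protein-coding gene, below it, with 1 point per list (circles, double loss; squares, control). MTSS1 and the gaps beside it, up to LRATD2, have the widest separation of circles and squares, the gaps from LRATD2 to POU5F1B and from MYC to GSDMC a smaller one, and NSMCE2 through ASAP1 sit at 0% and ADCY8 at 100% in all 4 lists.

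GSDMC, of the pore-forming gasdermin family, was at 0% in all 4 lists. The double loss block stopped 17.4 kb before it in double loss 1 and 12.4 kb before it in double loss 2, while the nearest control regions were 229 and 274 kb away. CYRIB, a regulator of Rac signalling, and ASAP1, which encodes an Arf GTPase-activating protein, were at 0% in all 4 lists too. ASAP1 is 392 kb long, the longest protein-coding gene of the locus. The nearest region to it was 263 and 237 kb away in double loss 1 and 2, against 244 and 139 kb in control 1 and 2.

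ADCY8, at 130780301 to 131040909, encodes an adenylyl cyclase stimulated by calcium and calmodulin, known mainly from neurons. It was covered at 100% in all 4 lists. The domain over it began at 130707001 and 130681001 in double loss 1 and 2, against 130688001 and 130726001 in control 1 and 2, so the groups overlap in this edge. The gap between ASAP1 and ADCY8 was covered at 25.6% ± 5.46 in the double loss group and 25.5% ± 2.73 in the control group (SD, n = 2 each). EFR3A, a membrane anchor of a phosphatidylinositol kinase, lies past ADCY8 and was at 100% in all 4 lists.

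A break that split the domain before EFR3A was present in 3 of the 4 lists. It measured 4 kb in double loss 2, 20 kb in control 1 and 5 kb in control 2, and double loss 1 had none there. In all 4 lists calls ran on past the end of the locus. With no break there, double loss 1 had a single region of 2623 kb, the widest of that list. The next Mb past the locus was covered at 100% in both double loss lists and at 99.6% and 99.1% in the control lists. The Mb before the locus was covered at 7.0% in double loss 1 and at 0% in the other 3 lists.

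Of the 12 other protein-coding genes in the locus, 7 were at 0% in all 4 lists and EFR3A was at 100% in all 4. LRATD2 was the 1 of these 12 whose groups do not overlap, and 5 of the 12 had covered sequence in some list. The median difference between groups was 0 points over the 8 named genes and 0 over these 12. Those medians follow from the 6 of 8 and 7 of 12 genes at 0% in all 4 lists. Over the 3057 protein-coding genes covered in at least 1 list the median was 0.776 points, which leaves out such genes and is not a like comparison. Gained sequence lay mostly away from protein-coding genes: the 7 gaps without them make up 71.2% of the locus and held 92.3% of its gained sequence, with the non-coding genes CCDC26 and LINC00861 among it. Outside the gaps, most of the rest lay in MTSS1.

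Read densities set the regions from MTSS1 to GSDMC apart from the ADCY8 domain. The MTSS1 region had 14.9 LaminB1 reads per kb in double loss 1 (exact Poisson 95% interval 14.5 to 15.2) and 15.2 in double loss 2 (14.9 to 15.6). The region over ADCY8 had 20.2 per kb over 2623 kb in double loss 1, and an interval of 21.7 to 22.3 per kb over 1164 kb in double loss 2. In the control lists it had 19.5 per kb over 1148 kb and 20.9 per kb over 1120 kb, so the stretch in double loss 1 is not the same as in the other lists. Between MTSS1 and GSDMC the density of a region was 13.5 to 17.6 LaminB1 reads per kb in the double loss lists, against 12.1 to 13.3 in the control lists. The highest of these belonged to the regions that end at 129152000 and 129155000, at 17.0 and 17.6 in double loss 1 and 2. Both of those regions also held sequence called in the control lists. These densities are not scaled for library depth, which is unknown.

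Inside the called regions of the locus, control library reads were dense in both groups; uncalled sequence has no such value. The regions had 10.5 to 13.4 control library reads per kb in the double loss lists, where the median region of the list had 8.22 and 8.24. In the control lists the regions had 8.81 to 10.4 per kb, where the median region had 6.39 and 6.41. On the log2 scale against the median region of its own list, the region that begins the ADCY8 domain was at 0.63 and 0.59 in double loss 1 and 2, against 0.60 in both control lists. The MTSS1 region was at 0.69 and 0.70 in double loss 1 and 2. The median region of chromosome 8 had 8.71 and 8.73 control library reads per kb in the double loss lists, against 6.91 and 7.06 in the control lists. The called regions of the locus were thus above the median called region of their own chromosome in all 4 lists. The part of this density in the calls was not tested.

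**Figure D3:**
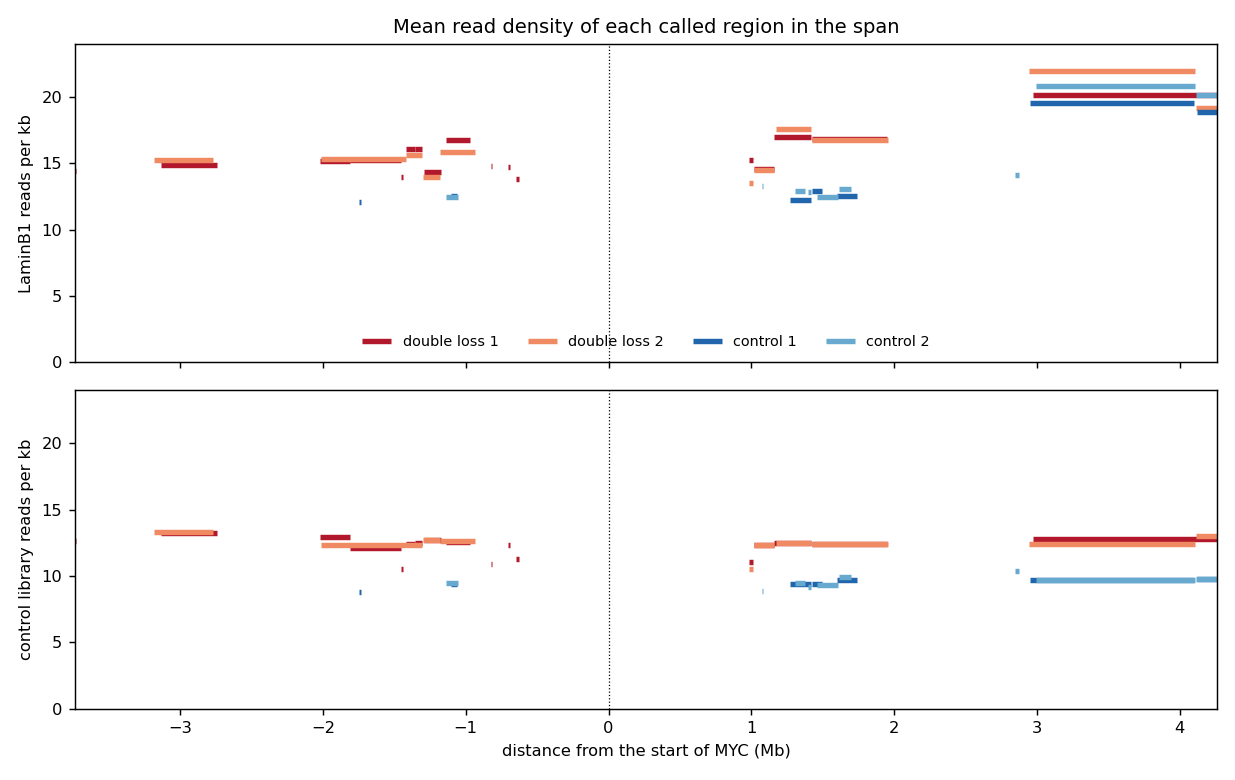
Mean read density of each called region in the locus, drawn as a bar from its start to its end by distance from the start of MYC (Mb). The upper panel gives LaminB1 reads per kb and the lower panel control library reads per kb, for the 2 double loss and the 2 control lists. LaminB1 density is about 20 per kb over ADCY8 in all 4 lists and lower in the other blocks, while control library density is nearly level along the locus within a group. Bars of lists from the same group overlie each other in the lower panel.

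The ratio of LaminB1 to control library reads in the MTSS1 region was 1.12 in double loss 1 (exact binomial 95% interval 1.08 to 1.17) and 1.14 in double loss 2 (1.10 to 1.18). The authors' log2 fold, which subtracts a constant of the list from the log2 of this ratio, was 0.10 and 0.11. Only 0.218% of the regions of double loss 1 and 0.221% of those of double loss 2 had a fold as low or lower. The lowest ratio of a called region of the locus in the control lists was 1.29 in control 1 and 1.31 in control 2, where the constants were 0.27 and 0.32, against 0.07 and 0.08 in double loss 1 and 2. The gained call over MTSS1 is thus wide and rests on many reads, with 5837 and 6354 LaminB1 reads against 5196 and 5571 control library reads, but its enrichment is among the smallest in its list.

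The other double loss regions outside the ADCY8 domain had folds below the list median too, over a wide range. Each fold is of a whole region, which can also hold sequence called in a control list. The gained stretch of 212 kb from 129476001, for example, was part of a region of 534 kb in double loss 2. The region from 126433001 to 126552000 in double loss 2 was at 0.06, lower than that over MTSS1. The region of 594 kb in the TRIB1 to LRATD2 gap of double loss 2 was at 0.23, percentile 4.5 of its list, and the downstream regions ending at 129155000 and 129693000 were at 0.42 and 0.35, percentiles 30.7 and 19.0. In double loss 1 the region ending at 129688000 was at 0.38, percentile 22.1. In the control lists, the regions between TRIB1 and GSDMC were at 0.10 to 0.19 in control 1 and 0.08 to 0.27 in control 2, so the control calls there were also weak. The region over ADCY8 was at 0.59 and 0.74 in double loss 1 and 2, against 0.74 and 0.78 in control 1 and 2, above the median fold of its list. In double loss 1 that value is for 2623 kb, and in double loss 2 the next region, through EFR3A, was at 0.48, below its list median. The medians were 0.51 and 0.50 in double loss 1 and 2, against 0.55 and 0.60 in control 1 and 2.

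**Figure D4:**
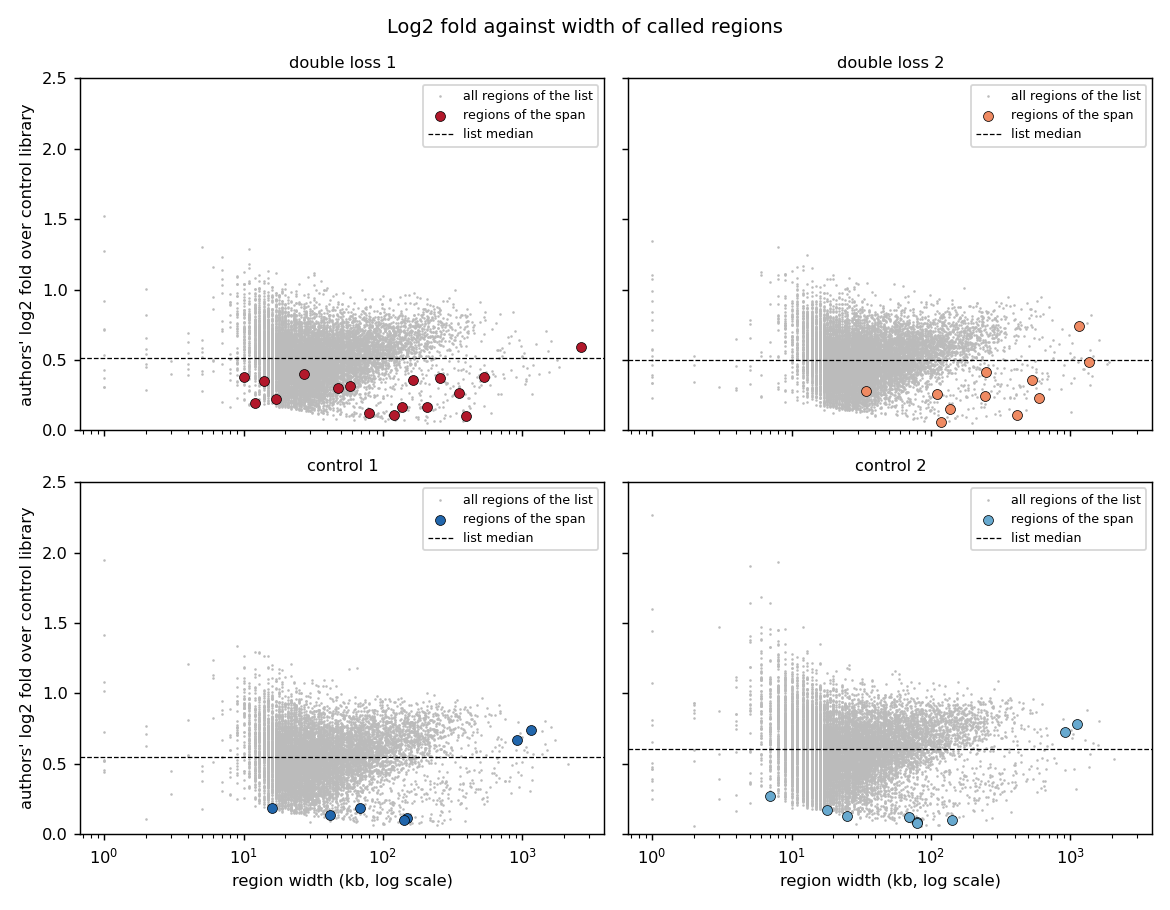
Log2 fold over the control library, as the authors deposited it, against region width in kb (log scale), with 1 panel per list. Grey points are all regions of the list, coloured points those overlapping the locus, and the dashed line is the list median. The regions over the ADCY8 domain are wide and near or above the median, and the other regions of the locus lie below it, many of them along the lower edge of the cloud.

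Wide regions of low fold were not particular to the locus. After the plot of fold against width was seen, regions of at least 100 kb with a fold under 0.4 were counted. The cutoff was the same for all lists, though their median folds differ, so the counts are not strictly alike between lists. They numbered 143 in each double loss list, against 181 and 137 in control 1 and 2. Chromosome 8 held 66 and 73 of them in double loss 1 and 2, against 60 and 47 in control 1 and 2. Chromosome 20 held 70 and 55 of them in control 1 and 2, more than chromosome 8, but 4 in each double loss list. Chromosome 10 held 25 and 15 in double loss 1 and 2, against 19 and 16 in control 1 and 2. Chromosome 17 held 20 and 23 in double loss 1 and 2, against 16 and 9 in control 1 and 2. The locus held 8 and 7 in double loss 1 and 2, against 2 and 1 in control 1 and 2. The median density of control library reads in wide regions of low fold stood at percentile 98.5 and 98.2 of the list in double loss 1 and 2, against 97.9 and 98.2 in control 1 and 2. For the other regions of at least 100 kb it stood at 53.4 and 53.3 in double loss 1 and 2, against 53.5 and 54.4 in control 1 and 2.

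The regions outside the ADCY8 domain all had folds below their list median, so a filter at that median must remove them. When each list was reduced to the 50% of its regions with the highest log2 fold, the locus had 0 kb gained and MTSS1 was at 0% in all 4 lists. The only regions left then were of the ADCY8 domain, where double loss 2 kept the region over ADCY8 and not the next one, through EFR3A. The locus was covered at 16.2% and 14.55% in double loss 1 and 2, against 16.15% and 15.9% in control 1 and 2. With a deposited adjusted p of at most 1e-05, MTSS1 kept its covered shares and the locus was at 43.3% and 45.0% in double loss 1 and 2, against 16.15% and 15.9% in control 1 and 2. That filter removed the control calls between TRIB1 and GSDMC.

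By a rule that took genes of at least 20 kb outside the locus with the smallest mean absolute difference in covered share from MTSS1 over the 4 lists, 5 genes were nearest. GLYATL3 on chromosome 6, of the glycine acyltransferase family, differed by 0.599 points on average, with 71.3% and 99.7% in double loss 1 and 2, against 0% in both control lists. CHMP4C, of the membrane-scission machinery and also on chromosome 8, differed by 2.44 points. The adhesion receptor gene ADGRF4 differed by 5.11 points, the tetraspanin gene TSPAN8 by 5.81 and DOCK10, an activator of small GTPases, by 6.83. MYC, TRIB1 and the other members at 0% in all 4 lists share that pattern with most genes, since 15.3% of protein-coding genes had covered sequence in any list.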

How the data were processed

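LaminB1 CUT&RUN of HCT116 cells gave 4 lists of called regions, 2 per group. The IgG libraries had no list of called regions of their own. The lists do not say whether the control library reads came from them. Per the submitters' processing notes, Bowtie2 2.3.4.3, Picard and hg38 were used; the region caller is not given in the sources used here.

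LaminB1 and control library read counts per region were deposited as whole numbers, per the file headers. The deposited p-values come raw and adjusted, with no adjusted one above 0.0500. The deposited log2 fold equals the log2 ratio of both counts less a constant of the list, and the deposited score is 100 times that log2 fold, as checked on the values. Both are the authors' values and were used within a list only. Regions with equal edges had equal control reads in 105 of 105 cases within groups and in 3 of 154 between groups, so each group had its own control reads. Lists were matched to samples by the names' genotype and replicate number.

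Covered share is the percentage of bases inside regions, on the lists' 1 kb grid (Python 3.11.15, numpy 2.4.6, pandas 2.3.3, scipy 1.17.1), tested on simulated intervals. Regions off chromosomes 1 to 22 and X, 1 or 2 per list, were left out. Coordinates count from 1. Genes came from RefSeq GRCh38.p14, whose table has no strand. The members and lists were chosen with earlier results of these data known. Named genes were the 8 members, the other protein-coding genes of the locus, 11 listed non-coding genes and the 5 genes most like the member with the largest gap. No test was run: the contrast chose the locus, and an exact permutation test of 2 against 2 libraries cannot go below p = 0.333. Alternatives changed region filters, merging, step size, flanks and replicates.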

Additional observations from a re-analysis of the deposited data

How the results depend on the processing

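With lists reduced to the 50% of regions with the highest log2 fold, the difference in covered share of the locus turned to -0.65 points, against 25.03. Gained sequence then came to 0 kb, steps of 20 kb above both controls to 0, and members above both controls to 0. Those counts follow largely from the folds of the regions outside the ADCY8 domain, all below their list median, and are no separate check. In double loss 2 the 50% filter also dropped the region through EFR3A. With an equal number of regions per list, taken by log2 fold, the difference was 8.84 points, gained sequence 419 kb, steps above both controls 26 and members above both controls 0. That setting keeps control 1, the shortest list, whole. With an adjusted p of at most 1e-05 the difference was 28.2 points. Up to the end of ASAP1 the 50% filter left 0 kb of called sequence in all 4 lists. Equal numbers left 999 and 784 kb there in double loss 1 and 2, against 416 and 0 kb in control 1 and 2. Beyond which regions each filter dropped, the cause of the shifts was not tested. Leaving out 1 library at a time gave differences of 24.4 to 25.7 points, gained sequence of 1793 to 1892 kb, and 104 to 108 steps above. It gave lost sequence of 0 to 25 kb and 0 to 2 steps below. The 25 kb and the 2 steps appeared without control 1, from the region of control 2 between ASAP1 and ADCY8. The control reads of each group stayed the same in these runs. Leaving out regions under 10 kb, merging regions within 5 kb, other step sizes and flanks moved no count by more than 1.5 times. No paired analysis was possible because the contrast is described without a test; as a description, the differences between lists of the same replicate number were 24.2 and 25.8 points. The read depth outside regions is unknown, which limits what can be said of sequence with no call.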
